A study of Mus musculus with 2 samples.

Results

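The regions described here were the 468 spots of 2 mouse liver sections in which transcripts of Slc1a2 and Oat made up the largest share of all transcripts, out of 4680 spots kept and 4692 deposited. The sections had been assayed with 10x Visium for formalin-fixed tissue, in which probe pairs report each captured transcript as 1 unique molecular identifier (UMI) and each spot covers a small group of neighbouring cells. For every spot with at most 50000 UMIs and between 100 and 7000 detected genes, the UMIs of Slc1a2 and Oat were summed and divided by all UMIs of that spot. The 10% of spots with the highest value in each library were taken as members, which gave 214 of 2140 kept spots in the AEG-1ΔMAC section and 254 of 2540 in the AEG-1fl/fl section. The other 1926 and 2286 kept spots are called the remaining spots.

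The AEG-1ΔMAC mouse carried floxed alleles of Mtdh, the gene of AEG-1, and Cre recombinase expressed from the Lyz2 locus, which removes the gene in myeloid cells and leaves it in hepatocytes. The AEG-1fl/fl littermate carried the same floxed alleles and no Cre. The labels put both mice at 27 weeks of age and on a high-fat and high-sugar diet (HF/HSD) from 7 weeks, whereas the methods of the study describe control-diet (CD) littermates for this assay, so the diet of these sections was not settled and is the same by either source. There was 1 library for each genotype, so the comparison had no replicate, no p-value could be computed, and every interval below covers counting error only. A difference between the genotypes cannot be told apart from a difference between the animals or sections.

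Liver lobules are arranged around a central vein, and the hepatocytes next to it differ in metabolism from those near the portal tract. Endothelial cells of the central vein release Wnt proteins and R-spondins, and the hepatocytes that receive them carry out glutamine synthesis, xenobiotic oxidation and bile acid synthesis, while periportal hepatocytes carry out ureagenesis, gluconeogenesis and amino acid breakdown. Slc1a2 encodes a glutamate transporter and Oat encodes ornithine aminotransferase, and together they feed glutamate to the hepatocytes that line the central vein.

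Slc1a2 lies at chr2:102658659-102790784 on the plus strand and Oat at chr7:132557478-132576398 on the minus strand of GRCm38 (GENCODE M21). Because many genes of the central vein side respond to Wnt signals through TCF factors, the 250 bases before the RefSeq start of each gene (GRCm38.p6) were searched on both strands for the core TCF letters ATCAAAG and TTCAAAG, which differ in the leading letter so that no match counts for both. The letters were found in 12 of 46 promoters (26.1%, from 31 of 43 genes with an entry) of the genes that were at least 2-fold higher in members of both libraries. They were found in 2 of 15 promoters (13.3%, from 12 of 16 genes) of the genes that were at least 2-fold lower, in 377 of 6921 promoters (5.45%) of all genes compared, and in 2457 of 32851 (7.48%) of the RefSeq table. Since the genes were grouped by values that go with the rule, these shares are a description, and a match is neither a binding site nor a cause. The promoters of Slc1a2, a gene of the rule, and of Lect2, Cyp2e1, Cyp1a2 and Gstm3, genes higher in members, are shown because each held 1 match, and the match is in capitals. They lie at chr2:102706188-102706437 on the plus strand, at chr13:56548539-56548788 on the minus strand, at chr7:140763569-140763818 on the plus strand, at chr9:57683656-57683905 on the minus strand and at chr3:107969175-107969424 on the minus strand, in that order.
Slc1a2: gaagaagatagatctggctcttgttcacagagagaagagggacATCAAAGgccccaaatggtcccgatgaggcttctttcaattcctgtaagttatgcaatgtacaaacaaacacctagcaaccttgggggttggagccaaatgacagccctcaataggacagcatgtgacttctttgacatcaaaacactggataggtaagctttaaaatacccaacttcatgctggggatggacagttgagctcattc
Lect2: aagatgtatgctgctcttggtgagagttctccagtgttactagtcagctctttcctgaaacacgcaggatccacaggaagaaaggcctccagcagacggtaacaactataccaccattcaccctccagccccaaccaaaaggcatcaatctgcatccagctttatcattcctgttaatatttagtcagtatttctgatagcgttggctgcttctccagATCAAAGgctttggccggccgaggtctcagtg
Cyp2e1: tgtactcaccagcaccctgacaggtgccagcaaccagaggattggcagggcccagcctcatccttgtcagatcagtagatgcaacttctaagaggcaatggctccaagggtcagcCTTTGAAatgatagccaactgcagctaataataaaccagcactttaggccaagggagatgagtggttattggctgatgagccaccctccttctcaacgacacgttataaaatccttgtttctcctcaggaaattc
Cyp1a2: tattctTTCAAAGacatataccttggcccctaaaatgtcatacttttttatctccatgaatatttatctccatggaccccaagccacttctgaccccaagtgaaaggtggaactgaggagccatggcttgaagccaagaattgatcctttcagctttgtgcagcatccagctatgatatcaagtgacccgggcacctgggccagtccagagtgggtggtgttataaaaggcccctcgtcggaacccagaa
Gstm3: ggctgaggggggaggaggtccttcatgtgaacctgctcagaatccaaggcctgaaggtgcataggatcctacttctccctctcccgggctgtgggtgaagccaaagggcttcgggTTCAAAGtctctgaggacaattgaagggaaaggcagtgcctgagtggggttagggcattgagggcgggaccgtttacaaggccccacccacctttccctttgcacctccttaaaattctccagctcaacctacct
The RefSeq start used for Slc1a2 falls inside the longer GENCODE gene. The match began 207 bases before the start of Slc1a2, 32 bases before that of Lect2, 135 bases before those of Cyp2e1 and Gstm3, and 244 bases before that of Cyp1a2. The promoters of Oat, Slc13a3 and Axin2 held none of these letters in the same window.

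Members held 4527993 UMIs in the AEG-1ΔMAC library and 4625375 in the AEG-1fl/fl library, against 40925293 and 45697475 in the remaining spots. The median member had 21013.5 and 16545 UMIs, close to the 20922.5 and 18528.5 of the remaining spots, and members ranged from 116 to 35670 UMIs and from 985 to 38037 UMIs. The 2 matrices shared 1782 spot barcodes, which are positions of the slide layout and not shared tissue, and 23 barcodes were members in both. Levels are given as CPM, the UMIs of a gene per 1000000 UMIs summed over a set of spots. Mtdh, the targeted gene, stood at 68.7 CPM in AEG-1ΔMAC members and 65.9 CPM in AEG-1fl/fl members, so its level does not check the labels of a deletion limited to myeloid cells.

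The rule selected members at different levels in the 2 libraries. The lowest 3 members had scores of 1847.79, 1850.56 and 1861.73 CPM in AEG-1ΔMAC, directly above remaining spots at 1840.49, 1840.09 and 1833.58 CPM. In AEG-1fl/fl the lowest 3 members had 1019.42, 1019.44 and 1021.74 CPM, directly above 1018.8, 1010.85 and 1009.69 CPM. The score thus ran on without a gap at the limit in both sections. The median member had a score of 2736.63 CPM in the AEG-1ΔMAC section and 1560.25 CPM in AEG-1fl/fl, against 407.052 and 208.864 CPM for the median remaining spot. With 1 threshold of 1398.84 CPM over both libraries, 319 AEG-1ΔMAC spots (14.9%) and 149 AEG-1fl/fl spots (5.87%) would have been members.

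Oat supplied most of the score, 78.5% of its UMIs in AEG-1ΔMAC members and 83.2% in AEG-1fl/fl members. Oat was detected in 100% of members of both libraries, with a median of 45 and 24 UMIs per member. Slc1a2 was detected in 98.6% and 97.2% of members, with a median of 12 and 5 UMIs. Summed over members, Slc1a2 stood at 623.5 CPM in the AEG-1ΔMAC section and 292.7 CPM in AEG-1fl/fl, and Oat at 2281 and 1451 CPM. Both genes were therefore higher in the AEG-1ΔMAC members, as they were in the remaining spots, where Slc1a2 stood at 72.5 and 34.4 CPM and Oat at 448.7 and 231.7 CPM. All these values chose the members and are given as a description.

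The pericentral label held against landmark genes that were not part of the score. Of 18 pericentral landmarks, 15 were in the probe set, and all 15 were higher in members than in the remaining spots of both libraries, with a median log2 ratio of 1.51 in the AEG-1ΔMAC section and 1.62 in AEG-1fl/fl. Glul, Cyp2c37 and Cyp2c50 were not analysed here. The 15 periportal landmarks had medians of -1.31 and -1.08, and 14 of them were lower in members of both libraries. The exception was Ass1, of the urea cycle, counted at only 5.96 to 8.31 CPM, with log2 ratios of -0.48 and 0.05. The 3 midlobular landmarks Hamp, Hamp2 and Igfbp2 were lower in members of both libraries, with medians of -0.58 and -0.68. Over all 11201 genes with at least 1 CPM the medians were 0.09 and 0.12. These ratios compare spots ordered by 2 of their own genes, so they describe the members and test nothing.

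Cyp2e1, the ethanol- and acetaminophen-oxidising cytochrome P450 at chr7:140763739-140774987, stood at 14120 CPM in AEG-1ΔMAC members and 6505 CPM in remaining spots, and at 7523 and 2367 CPM in AEG-1fl/fl. Cyp1a2, which oxidises caffeine and aromatic amines, stood at 1436 and 560.9 CPM in the AEG-1ΔMAC section and at 809.4 and 263 CPM in AEG-1fl/fl. Both were lower step by step over the deciles of spots ordered by the score, from 14120 to 2190 CPM for Cyp2e1 in the AEG-1ΔMAC section and from 7523 to 917.2 CPM in AEG-1fl/fl. The periportal P450 Cyp2f2 ran the other way, from 1026 CPM in members to 4056 CPM in decile 10 of AEG-1ΔMAC and from 1006 to 2811 CPM in AEG-1fl/fl. Over single spots, the rank correlation with the score was 0.81 for Cyp2e1 and -0.73 for Cyp2f2 over 2140 AEG-1ΔMAC spots, and 0.76 and -0.58 over 2540 AEG-1fl/fl spots, which share 1 library, its depth and the total in the denominator.

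**Figure D1:**
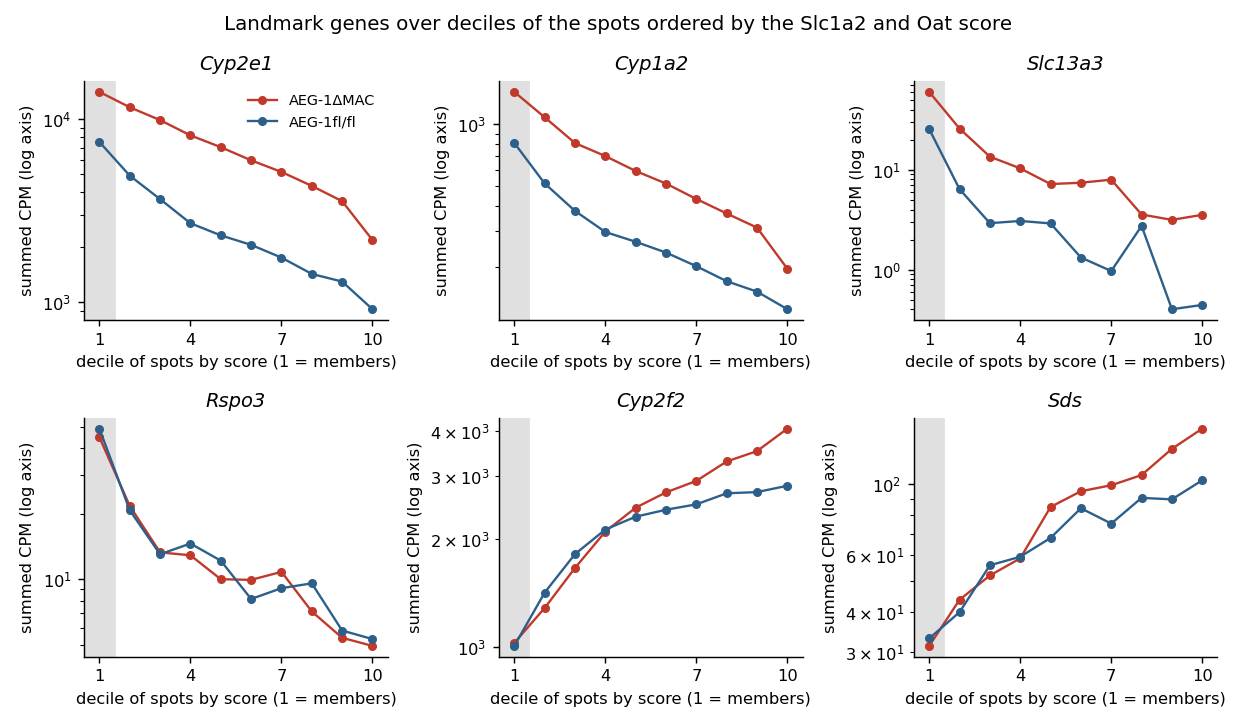
Summed CPM (log axis) of 4 genes higher in members and 2 genes lower in members, over 10 deciles of the kept spots ordered by the Slc1a2 and Oat score, with 1 line per library. Decile 1, shaded, holds the members: Cyp2e1 went from 14120 to 2190 CPM in the AEG-1ΔMAC section and from 7523 to 917.2 CPM in AEG-1fl/fl, while Cyp2f2 was higher towards decile 10 in both.

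Transporter genes were higher in members by larger ratios than Cyp2e1. Slc13a3, a sodium-coupled dicarboxylate transporter at chr2:165405028-165473230, stood at 60.1 CPM in AEG-1ΔMAC members and 9.26 CPM in remaining spots, and at 25.5 and 2.38 CPM in AEG-1fl/fl. Its log2 ratio was 2.70 (95% interval 2.47 to 2.93) and 3.42 (3.03 to 3.81). In AEG-1fl/fl it dropped from 25.5 CPM in members to 6.40 CPM in decile 2 and 0.444 CPM in decile 10. Rhbg, an ammonia transporter, stood at 30.9 and 4.72 CPM in the AEG-1ΔMAC section and at 16.6 and 2.41 CPM in AEG-1fl/fl, giving log2 ratios of 2.71 and 2.79. At least 1 Slc13a3 UMI was found in 64.0% of AEG-1ΔMAC members against 16.7% of remaining spots, and in 34.3% against 4.55% in AEG-1fl/fl. With every spot thinned to 10000 UMIs, which left out 6 and 18 shallower members and 20 and 88 remaining spots, the shares were 40.9% against 162 of 1906 spots and 20.3% against 2.32%.

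The order held for several genes among the members themselves, split by the same score that chose them. In the 107 AEG-1ΔMAC members with the higher score Slc13a3 stood at 83.6 CPM, against 37.6 CPM in the other 107, and in the 127 and 127 AEG-1fl/fl members it stood at 38.2 and 14.5 CPM. The log2 ratio of these sets was 1.15 (0.78 to 1.54) and 1.39 (0.810 to 1.999). Rhbg stood at 41.5 and 20.7 CPM and at 24.7 and 9.69 CPM in the same sets, and Axin2, a feedback inhibitor that Wnt signals induce, had log2 ratios of 0.82 and 1.04. Cyp2e1 had 0.26 and 0.37, so the broad P450 gradient was shallow inside the members while both transporters were at least 2-fold apart. Cyp2f2 differed by -0.39 and -0.26.

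Members overlapped in part with the spots picked by other pericentral genes. Of the 214 AEG-1ΔMAC members, 133 (62.1%) were also in the top 10% by Cyp1a2, 109 (50.9%) by Cyp2e1, 142 (66.4%) by Gulo and 120 (56.1%) by Lect2. Of the 254 AEG-1fl/fl members, 158 (62.2%) were in the top 10% by Cyp1a2, 176 (69.3%) by Cyp2e1, 153 (60.2%) by Gulo and 147 (57.9%) by Lect2. Smaller shares of AEG-1ΔMAC and AEG-1fl/fl members were in the top 10% by 5 other genes. They were 44.9% and 35% by Slc13a3, 36.4% and 24.8% by Rhbg, and 35.5% and 35.8% by Rspo3. By Axin2 they were 26.2% and 34.3%, and by Lgr5, at low counts, 21.5% and 11%. The Lgr5 lists held 46 and 28 members, but only 23 and 8 members had a UMI of it. These lists were filled up with spots at 0 UMIs in file order, so the Lgr5 shares were set in part by that order. The AEG-1fl/fl lists by Rhbg and Slc13a3 were also filled up, with 63 and 89 members listed and 59 and 87 holding a UMI. Any such list holds 10% of all kept spots, the share to set these beside. The lists overlapped have the same size in each library, so each share holds for both. By the periportal amino acid enzymes Sds, Hal and Gls2 the overlap was 0 of 214, which allows a share of up to 1.71%, and 0 of 254, which allows up to 1.44%. By the midlobular genes Hamp and Hamp2 it was 3 spots (1.40%) and 1 spot (0.394%).

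Of 6695 genes whose mean level reached 10 CPM in each library, and without Slc1a2 and Oat, 43 (0.642%) were at least 2-fold higher in members in both libraries and 16 (0.239%) at least 2-fold lower. The 43 genes were 81.1% of the 53 that reached 2-fold in the AEG-1ΔMAC section and 70.5% of the 61 in AEG-1fl/fl, and the 16 lower genes were 50% of 32 and 88.9% of 18. The median log2 ratio of the 6695 genes compared was 0.10 and 0.12. Over genes whose mean level reached 10 CPM in members it was 0.11 and 0.13. With TMM factors, which centre the bulk of genes near 0, the latter medians were -0.001 and -0.003 and the split was 29 higher and 24 lower genes. Median-of-ratios factors and leaving out the 50 most abundant genes each gave 29 and 23.

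Among genes averaging 20 CPM or more, those with the largest ratios included a hormone carrier and several detoxification enzymes. Serpina7, the thyroxine-binding globulin at chrX:139079257-139085236, stood at 62.7 CPM in AEG-1ΔMAC members and 11.4 CPM in remaining spots, and at 168.4 and 33.1 CPM in AEG-1fl/fl. Ces2c, a carboxylesterase, stood at 183.1 and 44.0 CPM, and at 83.9 and 18.7 CPM. Cyp2a4, a steroid hydroxylase, stood at 99.2 and 17.7 CPM, and at 25.5 and 6.21 CPM. The carboxylesterases and the Cyp2a genes are families of near-identical copies, so these assignments are uncertain. The glutathione transferases Gstm2 and Gstm3, also of such a family, had log2 ratios of 1.94 and 2.03 in the AEG-1ΔMAC section and 1.79 and 1.74 in AEG-1fl/fl.

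Further named genes had other roles. Npr2, a receptor for C-type natriuretic peptide, stood at 166.3 CPM in AEG-1ΔMAC members and 50.8 CPM in remaining spots, and at 59.0 and 17.8 CPM in AEG-1fl/fl. Lect2, a secreted hepatocyte protein and Wnt target whose promoter is shown above, stood at 400.6 and 134.7 CPM, and at 279.5 and 78.4 CPM. Gulo, the last enzyme of vitamin C synthesis, stood at 879 and 298.5 CPM, and at 762.1 and 240 CPM. Fitm1, which acts in lipid droplet formation, had log2 ratios of 1.68 and 2.10, Lhpp, a phosphatase encoded next to Oat, 1.95 and 2.22, and Nxpe2 1.65 and 2.12. The log2 ratio of each of these 6 genes was thus 1.56 or more in each library.

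**Figure D2:**
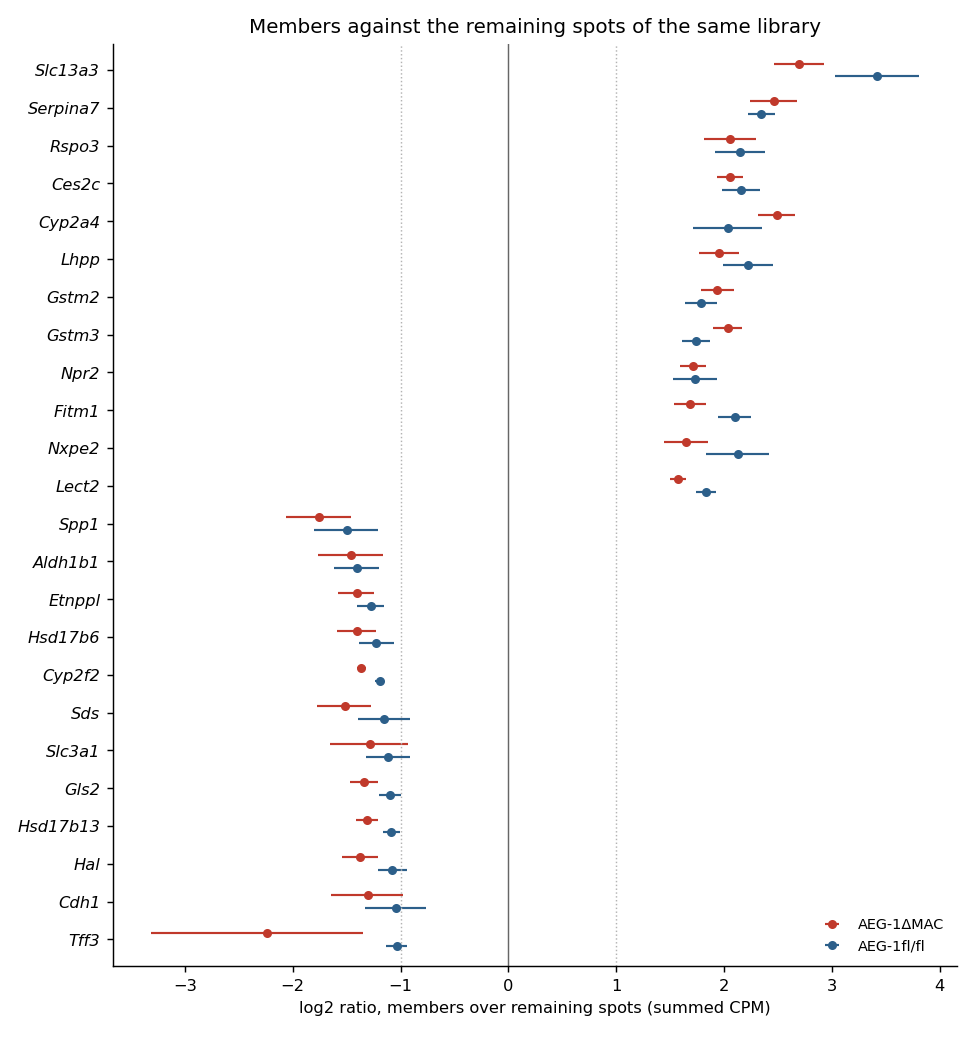
Log2 ratio of summed CPM in members over the remaining spots of the same library, for the 12 genes with the highest and the 12 with the lowest values in both libraries among genes averaging 20 CPM or more, with 95% intervals of counting error. Dotted lines mark a 2-fold ratio. Slc13a3 lay at 2.70 in the AEG-1ΔMAC section and 3.42 in AEG-1fl/fl. Tff3 had the widest interval, from -3.31 to -1.35 in AEG-1ΔMAC, where 4.21% of members held a UMI of it. Tff3 reached the average of 20 CPM through AEG-1fl/fl alone. Its level in AEG-1ΔMAC was too low for the count of genes at least 2-fold lower in both libraries.

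The genes lower in members were mostly periportal enzymes. Gls2, the liver glutaminase, stood at 115.5 CPM in AEG-1ΔMAC members and 291.4 CPM in remaining spots, and at 166.3 and 355.9 CPM in AEG-1fl/fl. Sds, which breaks down serine, had log2 ratios of -1.52 and -1.15, and Hal, which breaks down histidine, -1.37 and -1.08. Etnppl, a phosphoethanolamine lyase, had -1.41 and -1.28, Aldh1b1, a mitochondrial aldehyde dehydrogenase, -1.46 and -1.40, and Hsd17b13, a lipid droplet protein, -1.31 and -1.09. Slc3a1, a subunit of the cystine transporter, had -1.28 and -1.11, Hsd17b6, a steroid and retinol dehydrogenase, -1.41 and -1.22, and Cdh1, the adhesion protein E-cadherin, -1.30 and -1.04. Spp1, a secreted phosphoprotein that bile duct cells also make, had -1.75 and -1.50.

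The list of Wnt pathway and target genes held 24 genes with at least 1 CPM, with median log2 ratios of 0.51 and 0.61 in members over remaining spots, and 17 were higher in both libraries. Over all genes with at least 1 CPM, 5693 of 11201 were higher in both. Sp5, a Wnt-induced transcription factor, stood at 12.6 CPM in AEG-1ΔMAC members and 1.42 CPM in remaining spots, and at 10.8 and 1.31 CPM in AEG-1fl/fl. Axin2 stood at 30.3 and 9.24 CPM, and at 30.0 and 5.84 CPM. Lgr5, a receptor for R-spondins, stood at 5.08 and 0.977 CPM, and at 1.95 and 0.460 CPM, and Tbx3, a Wnt-induced repressor, had log2 ratios of 1.53 and 1.42. The Wnt inhibitors Notum and Rnf43 had 0.89 and 0.78 in the AEG-1ΔMAC section and 0.95 and 0.89 in AEG-1fl/fl.

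Ligands of the pathway were also higher. All 5 markers listed for central vein endothelium, which include the ligands Rspo3, Wnt2 and Wnt9b beside Thbd and Cdh13, were higher in members of both libraries, and their summed level was 91.7 CPM in AEG-1ΔMAC members against 28.7 CPM in remaining spots, and 82.2 against 21.9 CPM in AEG-1fl/fl. Rspo3, an R-spondin at chr10:29452416-29535867, stood at 44.8 and 10.8 CPM, and at 49.1 and 11.1 CPM. Wnt2 stood at 18.3 and 8.43 CPM, and at 12.8 and 3.81 CPM, and Wnt9b at 4.42 and 0.709 CPM, and at 1.73 and 0.328 CPM. Rspo3 was found in 52.8% of AEG-1ΔMAC members and 51.2% of AEG-1fl/fl members, against 19.6% and 18.6% of remaining spots, and thinned to 10000 UMIs in 36.5% and 35.6% against 9.23% and 10.3%. In spots of mixed cells, more cells of a type and more RNA per cell cannot be told apart.

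Other cell markers were also unequal. The 5 Kupffer cell markers, for the resident macrophages in which the deletion acts, summed to 365.3 CPM in AEG-1ΔMAC members and 582.1 CPM in remaining spots, and to 326.9 and 562.3 CPM in AEG-1fl/fl, and all 5 were lower in members of both libraries. The 5 cholangiocyte markers summed to 28.9 and 93.7 CPM, and to 37.0 and 93.3 CPM, with Krt19 at 0 in AEG-1fl/fl members. The 3 smooth muscle markers summed to 13.3 and 28.1 CPM in AEG-1ΔMAC but to 27.2 and 25.1 CPM in AEG-1fl/fl. The 4 sinusoidal endothelium markers summed to 332.2 and 352.4 CPM, and to 376.4 and 348.4 CPM, and the 6 stellate cell markers to 486.7 and 426.0 CPM, and to 528.2 and 435.1 CPM. The part of these cells in the gene ratios was not tested.

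Of 22 genes for handling glutamate, glutamine and proline, the pathway of the genes of the rule, 2 were at least 2-fold higher in members of both libraries and 1 was at least 2-fold lower. The 2 were Rhbg and Slc1a4, a neutral amino acid transporter at 12.4 and 2.35 CPM in the AEG-1ΔMAC section and 18.8 and 5.19 CPM in AEG-1fl/fl, and the 1 was Gls2. Over all 11201 genes with at least 1 CPM, 114 were at least 2-fold higher in both libraries and 50 at least 2-fold lower. Prodh, which starts proline breakdown, had log2 ratios of 0.83 and 0.91, Glud1, glutamate dehydrogenase, 0.26 and 0.22, and Got1, the cytosolic aspartate transaminase, -0.68 and -0.67. The list's medians of 0.12 and 0.10 lay near those of all genes, and that of AEG-1fl/fl was -0.03 with TMM factors and -0.02 with the other 2 scalings. The 24 urea cycle and amino acid genes had medians of -0.42 and -0.30, and 16 were lower in members of both libraries, among them Cps1, which starts the urea cycle, at 2533 and 4169 CPM in the AEG-1ΔMAC section and at 2517 and 3630 CPM in AEG-1fl/fl. Over all genes with at least 1 CPM, 1934 of 11201 were lower in members of both libraries.

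Of 28 cytochrome P450 and related enzymes, 25 were higher in members of both libraries and 5 at least 2-fold, with medians of 0.29 and 0.33. Of 27 conjugation enzymes, 22 were higher and 3 at least 2-fold, with medians of 0.48 and 0.46. Of 24 bile acid genes, 16 were higher, and Cyp7a1, the rate-limiting enzyme of bile acid synthesis, stood at 173.1 and 82.6 CPM in the AEG-1ΔMAC section and at 115.5 and 41.8 CPM in AEG-1fl/fl. Of 27 genes for fatty acid oxidation and ketogenesis, 26 were higher in members of both libraries but none reached 2-fold, with medians of 0.25 and 0.29. Over all genes with at least 1 CPM, 5693 of 11201 were higher in members of both libraries and 114 at least 2-fold. The 18 clock genes had medians of 0.01 and 0.02, which turned to -0.10 and -0.11 with TMM factors, so they differed little between members and remaining spots.

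The genotypes were then compared within the members. Of 7117 genes whose mean level reached 10 CPM in members, 100 (1.41%) were at least 2-fold higher in the AEG-1ΔMAC section and 67 (0.941%) at least 2-fold lower. Of the 100, 64 were also at least 2-fold higher in the remaining spots and all 100 had the same sign there, and of the 67, 29 were at least 2-fold lower and 66 had the same sign. In the remaining spots themselves, 88 genes passed 2-fold upward and 41 downward. Of 11201 genes with at least 1 CPM, 8003 had a genotype ratio above 0 there and 3198 below 0. A shared sign was therefore the more common outcome for the upward genes and the less common one for the downward genes. Over all genes compared the median in members was 0.13. With TMM factors it was 0.02 and the split turned to 74 higher and 87 lower genes, and it was 74 and 89 with median-of-ratios factors and 73 and 90 without the 50 most abundant genes, so the balance of higher and lower genes depends on the scaling.

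Among genes averaging 50 CPM or more, Gadd45g and Alas1 had the largest ratios upward. Gadd45g, a stress-induced growth regulator at chr13:51846678-51848468, stood at 189.3 CPM in AEG-1ΔMAC members (95% interval 176.8 to 202.4) and 12.1 CPM in AEG-1fl/fl members (9.15 to 15.7), a log2 ratio of 3.97 (3.58 to 4.38). Alas1, the rate-limiting enzyme of heme synthesis at chr9:106233455-106248654, stood at 348.7 and 27.7 CPM, a log2 ratio of 3.65. In the remaining spots the ratios were 4.51 and 3.90, so neither difference was particular to the members. Onecut1, a hepatocyte transcription factor, stood at 130.5 and 13.6 CPM, Phlda1 at 331.5 and 42.4 CPM, and Errfi1, an inhibitor of the epidermal growth factor receptor, at 1392 and 276.5 CPM. Dusp1, a phosphatase that switches off MAP kinases, had a log2 ratio of 1.83 and Arid5b, a chromatin regulator, of 1.998.

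Clock genes and major urinary protein genes were also among those with the largest ratios at 50 CPM or more. Nr1d1, the clock repressor REV-ERB alpha, stood at 80.0 CPM in AEG-1ΔMAC members and 25.3 CPM in AEG-1fl/fl members, and Lpin1, a phosphatidate phosphatase, at 88.8 and 19.5 CPM. Of 18 clock genes, 13 were higher in AEG-1ΔMAC members, 7 of them by 2-fold or more. The other 5 were lower, and 1 of these, Cry1, passed 2-fold. Among all 11201 genes with at least 1 CPM, 7015 were higher, while 407 passed 2-fold upward and 405 downward. The clock list's median was 0.85 in members and 0.97 in remaining spots, against 0.11 and 0.13 for all genes. In members, 9 clock genes had intervals above 0 and 4 had intervals below 0, so the median does not describe a uniform rise. The time of tissue collection is not given in the sources used here, and its part in the genotype ratios was not tested. Mup17 stood at 14360 and 3361 CPM and Mup12 at 88.8 and 22.5 CPM, both of a family of near-identical genes, which makes these assignments uncertain.

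Several genes of lipid metabolism were lower in AEG-1ΔMAC members. Scd1, the stearoyl-CoA desaturase at chr19:44394455-44407879, stood at 582.4 CPM in AEG-1ΔMAC members and 2375 CPM in AEG-1fl/fl members, a log2 ratio of -2.03 (-2.09 to -1.97), against -1.58 in the remaining spots. Fabp5, a fatty acid binding protein, stood at 30.5 and 139 CPM, Lpl, which releases fatty acids from lipoproteins, at 99.4 and 289.9 CPM, and Crat, a carnitine acyltransferase, at 33.4 and 80.4 CPM. Acly, which makes cytosolic acetyl-CoA, stood at 100.7 and 261 CPM. The median of the 15 lipogenesis genes was -0.40 in members and -0.35 in remaining spots, and 10 were lower in AEG-1ΔMAC members. The member median was -0.23 with members matched on UMIs, -0.66 with spots thinned before scoring, -0.62 with the top 20% of spots and -0.71 with 1 score threshold. Of the 22 sterol synthesis genes, 19 were lower, 1 of them, Pmvk, at least 2-fold, with a median of -0.46 in members and -0.20 in remaining spots. Over all 11201 genes with at least 1 CPM, 4186 were lower in AEG-1ΔMAC members and 405 at least 2-fold lower. The lipogenesis and sterol medians in members were below 0 with all 3 other scalings.

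Tff3, a secreted trefoil peptide at chr17:31125306-31129646, had the lowest genotype ratio in members. It stood at 2.21 CPM in AEG-1ΔMAC members, from 10 UMIs, and at 181.4 CPM in AEG-1fl/fl members, a log2 ratio of -6.36 (-7.42 to -5.47). It was found in 4.21% of AEG-1ΔMAC members and 90.9% of AEG-1fl/fl members, and in 17.5% and 97.1% of remaining spots. Depp1 stood at 27.6 and 112.2 CPM, Efna1, an ephrin ligand, at 36.0 and 117.6 CPM, and Sparc, a matrix protein, at 75.3 and 175.6 CPM. Serpina7, among the leading genes of the members, was lower in AEG-1ΔMAC members at a log2 ratio of -1.43 and in remaining spots at -1.54.

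**Figure D3:**
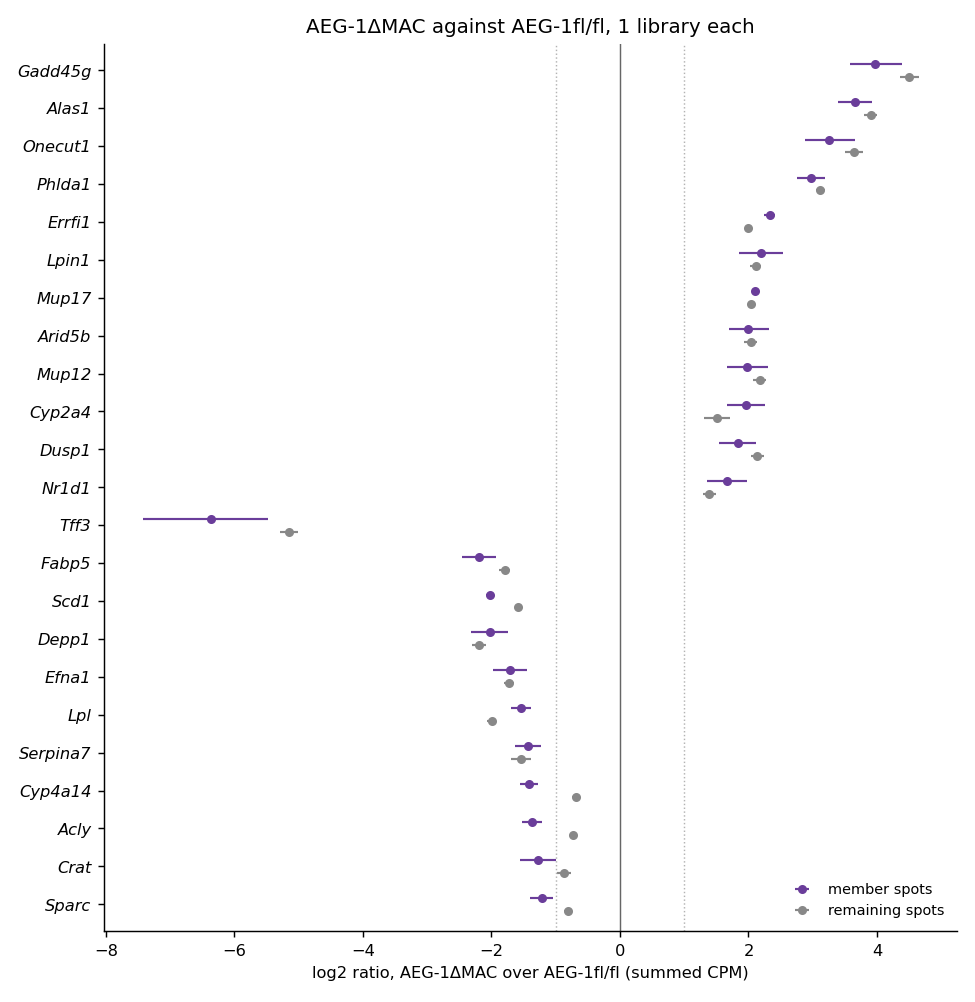
Log2 ratio of summed CPM in AEG-1ΔMAC over AEG-1fl/fl, 1 library each, in members and in the remaining spots, for the 12 genes with the highest and 11 of the 12 with the lowest ratio in members among genes averaging 50 CPM or more, with 95% intervals of counting error. The ratio had the same sign in both sets of spots for all 23 genes drawn, for example -1.41 and -0.69 for Cyp4a14 and -6.36 and -5.16 for Tff3.

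The pericentral genes themselves were unevenly matched between the genotypes. Cyp2e1 had a log2 ratio of 0.91 in members and 1.46 in remaining spots, and Cyp1a2 0.83 and 1.09. Npr2 had 1.49 and 1.51, Ces2c 1.13 and 1.23, Cyp2a4 1.96 and 1.51, and Aldh1a1, which makes retinoic acid, 1.09 and 0.86. By contrast, Gstm2, Gstm3, Axin2, Tbx3 and Rspo3 had ratios from -0.13 to 0.04 in members, each with an interval that included 0. The list of 15 pericentral landmarks had a median of 0.52 in members and 0.70 in remaining spots, 14 were higher in AEG-1ΔMAC members, and 3 were at least 2-fold higher. Over all 11201 genes with at least 1 CPM, 7015 were higher in AEG-1ΔMAC members and 407 at least 2-fold higher. The 15 periportal landmarks had a median of -0.42 in members and -0.02 in remaining spots.

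The metabolic lists of the central vein side were shifted modestly between the genotypes. Of 27 conjugation enzymes 23 were higher in AEG-1ΔMAC members, with a median log2 ratio of 0.39, of 24 bile acid genes 21, with 0.28, of 28 P450 and related enzymes 20, with 0.33, and of 15 heme genes 12, with 0.16, while over all genes 7015 of 11201 were higher, with 0.11. The medians in remaining spots were 0.31 for conjugation, 0.375 for bile acid, 0.31 for P450 and related and 0.11 for heme genes. The shift was therefore not particular to members. In members with 1 score threshold over both libraries the conjugation median was 0.14 and the heme median 0.10. With TMM factors the member medians of heme and bile acid genes were 0.05 and 0.17, against 0.02 for all genes compared. Cyp7a1 had a ratio of 0.58 and Cpox, which acts late in heme synthesis, stood at 193.9 and 115.7 CPM. The 24 Wnt genes had a median of 0.13, close to all genes, and the 24 urea cycle and amino acid genes -0.01. The 27 fatty acid oxidation genes had 0.04 and the 22 glutamate, glutamine and proline genes 0.03, and both medians turned below 0, to -0.07 and -0.08, with TMM factors. The smooth muscle markers summed to 13.3 CPM in AEG-1ΔMAC members and 27.2 CPM in AEG-1fl/fl members, and the 2 red cell markers, Hbb-bs of hemoglobin and Alas2 of red cell heme synthesis, to 645.3 and 924 CPM, and their part in the ratios was not tested.

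The ratio of ratios, the genotype ratio in members over that in the remaining spots, asks whether members and remaining spots stood apart to a different degree in the 2 libraries. Of 7024 genes, 55 (0.783%) had a ratio of ratios of at least 1.5 upward and 78 (1.11%) downward, and the median was -0.02 on the log2 scale. All 15 periportal landmarks had values below 0, with a median of -0.24 that was -0.06 with 1 score threshold over both libraries. Of 15 pericentral landmarks 11 were below 0, with a median of -0.11 that was -0.36 with 1 threshold and turned to 0.06 with Slc1a2 alone as the score. So were 11 of 15 lipogenesis genes, with -0.29, and 18 of 22 sterol genes, with -0.20. Over all genes with at least 1 CPM, 6067 of 11201 were below 0, and no test was possible.

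Among genes averaging 50 CPM or more, Tff3 had the largest downward value, -1.20 from the 10 UMIs given above, followed by Mt2, Apoa4 and Mt1. Mt2, a metallothionein at chr8:94172664-94173568, stood at 87.7 CPM in AEG-1ΔMAC members and 176.2 CPM in remaining spots, but at 182.3 and 173.8 CPM in AEG-1fl/fl, giving a log2 ratio of ratios of -1.08 (-1.25 to -0.90). Its neighbour Mt1 stood at 134.5 and 235.5 CPM, and at 306.1 and 294.6 CPM, with -0.86 (-1.01 to -0.72). Apoa4, an apolipoprotein, stood at 258.2 and 551.6 CPM, and at 527.3 and 557.4 CPM, with -1.01 (-1.12 to -0.91). In AEG-1ΔMAC the 3 genes were low in members and higher towards decile 10, where Apoa4 reached 750.5 CPM, while in AEG-1fl/fl Apoa4 stayed between 502.8 and 601.3 CPM over all deciles. In the spots rich in Sds, Hal and Gls2 the genotype ratio of Mt2 was 0.91 and that of Apoa4 0.66, against -1.06 and -1.03 in members.

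Cyp4a14, a fatty acid hydroxylase, stood at 128.8 CPM in AEG-1ΔMAC members and 81.6 CPM in remaining spots, and at 342 and 131.2 CPM in AEG-1fl/fl, giving a log2 ratio of ratios of -0.72. Acly stood at 100.7 and 178 CPM, and at 261 and 296.7 CPM, with -0.64, so that its log2 ratio of members over remaining spots was -0.82 and -0.18. Cyp2e1 had -0.55 (-0.57 to -0.53): its gradient was flatter in AEG-1ΔMAC, where the remaining spots held 6505 CPM against 2367 CPM. Mup11 and Mup20 had -0.76 and -0.56, with the reservation on near-identical copies. Cyp2e1 and Mup20 did not reach the 1.5-fold limit of the counts above. Slc13a3, named above, had -0.72 (-1.16 to -0.28) and Axin2 -0.65 (-1.06 to -0.24).

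Upward, the largest value among genes averaging 50 CPM or more was that of Egr1, an immediate-early transcription factor. It stood at 55.0 CPM in AEG-1ΔMAC members and 40.2 CPM in remaining spots, and at 93.8 and 132.6 CPM in AEG-1fl/fl, so that it was higher in members of AEG-1ΔMAC and lower in those of AEG-1fl/fl, at a log2 ratio of ratios of 0.95 (0.71 to 1.19). Anxa5, a phosphatidylserine-binding protein, ran the opposite way, with 75.3 and 86.4 CPM in the AEG-1ΔMAC section and 123.9 and 95.0 CPM in AEG-1fl/fl. Hamp2, of the hepcidin genes, had 0.61, Lpl and Gpcpd1, a phosphodiesterase of choline lipids, 0.45 each, and Saa4, an apolipoprotein of a family of near-identical copies, 0.45. Id3, an inhibitor of transcription factors, had 0.43, Ifi47, an interferon-induced GTPase, 0.41, Cpox, of heme synthesis, 0.40, Mmp19, a metalloproteinase, 0.40, and Fbxo21, a ubiquitin ligase subunit, 0.39. Egr1 and Hamp2 reached the 1.5-fold limit of the counts above, whereas Anxa5 and the genes from Lpl to Fbxo21 did not. Hamp, the iron hormone hepcidin, went from 424 CPM in AEG-1ΔMAC members to 713.2 CPM in decile 3 and back to 446.7 CPM in decile 10, whereas in AEG-1fl/fl it went from 161.5 CPM in members to 358.1 CPM in decile 10. Nkd1, a Wnt inhibitor among the landmarks, had 0.99 (0.41 to 1.58) at 22.3 CPM in AEG-1ΔMAC members and 8.43 CPM in AEG-1fl/fl members.

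**Figure D4:**
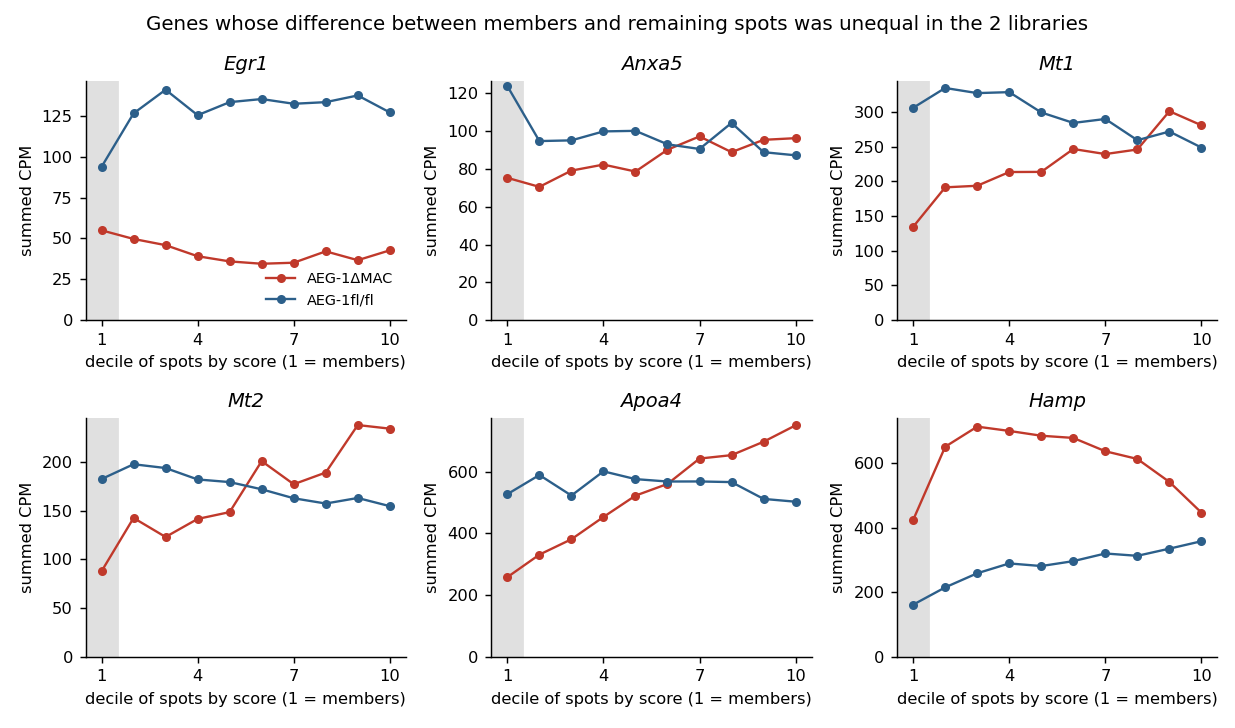
Summed CPM of 6 genes over 10 deciles of the kept spots ordered by the score, with decile 1, shaded, holding the members and 1 line per library. Apoa4 went from 258.2 to 750.5 CPM in the AEG-1ΔMAC section and lay between 502.8 and 601.3 CPM in AEG-1fl/fl, and Egr1 was highest in members in AEG-1ΔMAC, at 55.0 CPM, and lowest in members in AEG-1fl/fl, at 93.8 CPM.

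The members were set beside the spots with the most Sds, Hal and Gls2 and the spots with the most Hamp and Hamp2, each the top 10% of its library. The clock list had genotype medians of 0.85 in members, 0.86 in the Sds, Hal and Gls2 spots and 0.80 in the Hamp and Hamp2 spots. Lipogenesis had -0.40, -0.08 and -0.20, and sterol synthesis -0.46, 0.15 and -0.28. Gadd45g had 3.97, 4.86 and 4.22 and Scd1 -2.03, -1.63 and -1.46. The median of the clock list therefore lay at much the same ratio in all 3 sets, whereas the medians of the lipid lists were lowest in members. For lipogenesis this order was not firm. Its member median was -0.23 with members matched on UMIs and -0.28 with member sums thinned to the same total, and the remaining spots stood at -0.35. The pericentral landmarks had medians of 0.52, 0.47 and 1.21. The spots rich in Hamp and Hamp2 need not be the same zone in both sections, since Hamp was highest in decile 3 of AEG-1ΔMAC and in decile 10 of AEG-1fl/fl, and the genotype ratio of the periportal gene Aldh1b1 there was -2.20.

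**Figure D5:**
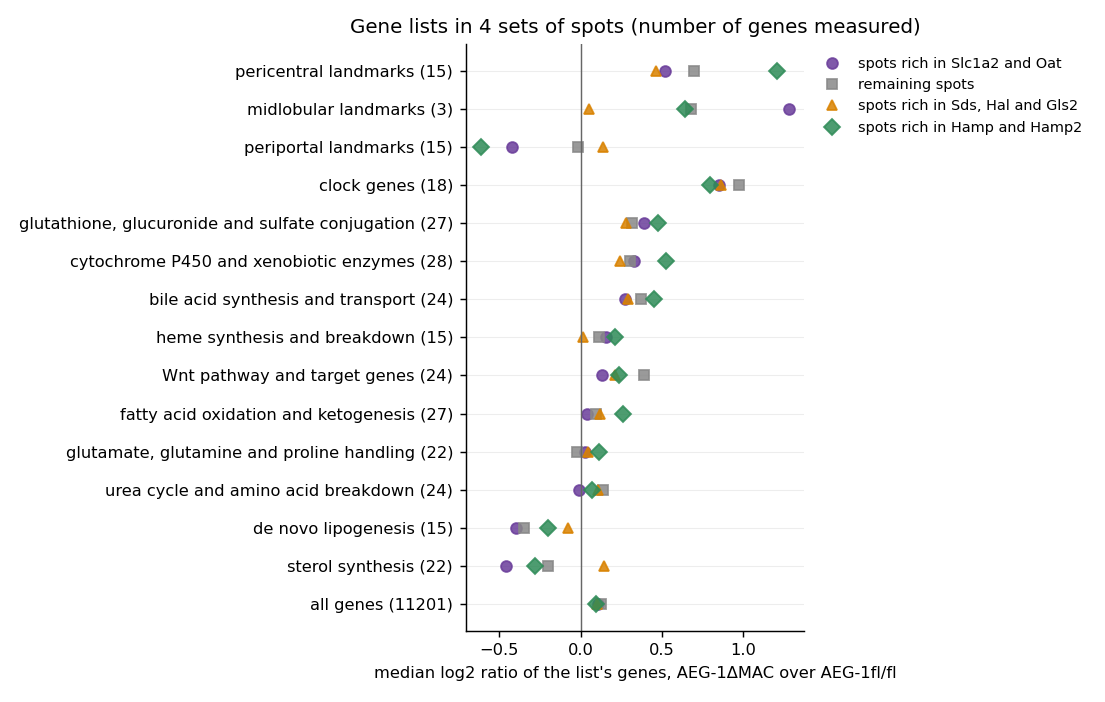
Median log2 ratio of AEG-1ΔMAC over AEG-1fl/fl for 14 gene lists and all genes, with the number of genes measured, in members, in the remaining spots and in the spots rich in Sds, Hal and Gls2 or in Hamp and Hamp2. The sterol list lay at -0.46 in members and 0.15 in the Sds, Hal and Gls2 spots, and the clock list lay between 0.80 and 0.97 in all 4 sets.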

How the data were processed

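Liver sections of 1 AEG-1ΔMAC and 1 AEG-1fl/fl mouse were profiled with 10x Visium for formalin-fixed tissue. Raw UMI counts per gene and spot, made by the authors with Space Ranger 2.0.1 (mm10 reference and mouse probe set), were deposited without normalization; Seurat 4.3.0 is named in the submitters' processing notes. Probe capture means that levels cannot be compared between genes, and a transcript without a probe is not seen. Spot positions were not used. The tables listed 19465 genes, 4017 of them with 0 UMIs in both libraries, and 0 columns belonged to other samples.

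Spots were filtered and scored as stated above, and UMIs were summed over members and over remaining spots and scaled to CPM (numpy 2.4.6, scipy 1.17.1, pandas 2.3.3 under Python 3.11.15). CPM carry exact Poisson and log2 ratios exact conditional binomial 95% intervals, and ratios of ratios an interval from the 4 counts on the log scale. With 1 library per genotype no test was made, and spots were not treated as replicates. Genes entered a count where their mean level reached 10 CPM and were counted past 2-fold, or 1.5-fold for the ratio of ratios. Named genes were the 12 highest and 12 lowest ratios of members over remaining spots with at least 20 CPM, the 12 and 12 extreme genotype ratios and the 10 and 10 extreme ratios of ratios with at least 50 CPM, and genes of the lists. Of the 12 lowest genotype ratios, 1 gene is not reported here. The members and lists were chosen with earlier results of these data known. TMM factors came from edgeR 4.0.16 under R 4.3.3. The counting steps were tested on simulated data. The alternatives tried were other shares of spots, other score genes, other scalings, other minimum levels and folds, thinning, and spots matched on UMIs.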

Additional observations from a re-analysis of the deposited data

Results flagged for a closer look

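Among the 387 genes ranked by size or held in the lists, 6 had an interval of the log2 ratio of members over remaining spots that lay on opposite sides of 0 in the libraries. Egr1 had 0.45 (0.25 to 0.65) in the AEG-1ΔMAC section and -0.50 (-0.64 to -0.36) in AEG-1fl/fl, a difference of 0.95. The other 5 were lower in AEG-1ΔMAC members and higher in AEG-1fl/fl members. Anxa5 had -0.20 (-0.36 to -0.04) and 0.38 (0.25 to 0.51), a difference of -0.58, and Thrsp, which promotes lipid synthesis, -0.19 and 0.29, a difference of -0.48. Sparc had -0.20 and 0.20, a difference of -0.41, Hbb-bs, a hemoglobin gene, -0.21 and 0.18, a difference of -0.40, and Pklr, the liver pyruvate kinase, -0.18 and 0.14, a difference of -0.32. Of 10 summed marker lists, 2 behaved likewise: the red cell markers had -0.16 and 0.14, a difference of -0.30, and the sinusoidal endothelium markers -0.09 and 0.11, a difference of -0.20. Over all 6695 genes compared the medians were 0.10 and 0.12, so that the AEG-1fl/fl values of Pklr and of both marker lists lay near the median gene. The AEG-1fl/fl intervals of Sparc (0.097 to 0.309) and Thrsp (0.091 to 0.490) also included that median. With 1 library per genotype the difference was not tested for any of them, and the intervals hold counting error only.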

How the results depend on the processing

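The counts and landmark medians were recomputed under 20 other settings, 2 of them chosen after seeing the data: members picked by Cyp2e1 and Cyp1a2, and spots under 10000 UMIs left out. Of 1291 values of named genes, 1109 stayed within the interval of the reported value, 182 moved and 0 changed sign. These genes had been picked for the most extreme ratios in the same counts, and the settings largely reuse the same spots. A change of sign was therefore unlikely from the start, and its absence is no independent check. The 43 genes higher in members numbered 27 with the top 20% of spots, 103 at a minimum of 1 CPM, 18 at 50 CPM and 117 at 1.5-fold. The 16 lower genes numbered 8 with the top 20%, 6 with Slc1a2 alone, 43 at 1 CPM, 7 at 50 CPM and 56 at 1.5-fold. The 100 genes higher in AEG-1ΔMAC members numbered 163 with the top 5%, 387 at 1 CPM, 36 at 50 CPM and 464 at 1.5-fold, and the 67 lower ones 102, 399, 24 and 221. The 55 upward ratios of ratios numbered 189 with the top 5%, 16 with the top 20%, 127 as means over spots of each spot's CPM, 565 at 1 CPM, 2 at 50 CPM and 2 at 2-fold. The 78 downward ones numbered 254 with the top 5%, 30 with the top 20%, 133 with 1 threshold over both libraries, 736 at 1 CPM, 7 at 50 CPM, 11 at 2-fold and 141 with members picked by Cyp2e1 and Cyp1a2. All other settings gave counts within 1.5 times. The pericentral median in AEG-1fl/fl, 1.62, was 1.73 with the top 5%, 1.41 with the top 20%, 1.48 with Slc1a2 alone, 1.70 with 1 threshold, 1.49 with TMM factors, 1.502 without the 50 most abundant genes and 1.505 with median-of-ratios factors. The periportal median in AEG-1ΔMAC, -1.31, was -1.21 with Slc1a2 alone, -1.42 with TMM factors and -1.865 with members picked by Cyp2e1 and Cyp1a2, and in AEG-1fl/fl, -1.08, it was -0.84 with the top 20%, -0.84 with Slc1a2 alone and -1.23 with members picked by Cyp2e1 and Cyp1a2. Lower minimum levels and folds admit more genes by construction; the cause of the other shifts was not tested. The planned values of Glul and the members picked by Glul were not run, as Glul was not analysed here. No paired analysis was possible because each genotype had 1 library and no test was made. Low counts limit Lgr5, Wnt9b, Slc22a3 and Tff3, whose intervals were the widest.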
